A study of Mus musculus with 11 samples.

Results

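Genes of the T-cell receptor and of cytotoxic granules were followed in sorted hematopoietic stem cells (HSCs) of the mouse, from which all blood cells descend. The list was given by name and holds 10 genes: the receptor chains Cd3d, Cd3e and Cd3g, the adhesion receptor Cd2, the kinase Lck, the receptor regulator Ubash3a, and the granule genes Nkg7, Gzma, Gzmb and Prf1. Of these, 9 had a probe set assigned to them alone, out of 22180 genes measured, and Lck was not analysed here. The study measured RNA of HSCs from 11 samples on Affymetrix arrays. Mice had received PBS (n = 3 arrays), all-trans retinoic acid (ATRA, n = 3), polyIC (pIC, a synthetic double-stranded RNA that triggers interferon release, n = 2) or ATRA and then pIC (here ATRA+pIC, n = 3). The labels give no strain, age, dose, time or sorting gate, and do not say whether each array came from its own mouse, so the p-values cover the spread between arrays, which may be technical. Levels are deposited log2 intensities. All 9 genes were kept in every main test, since no filter on low values was used there. A filter on dim genes, tried as an alternative, kept 8 of them.

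T cells recognise peptides through a receptor whose signal is carried into the cell by the CD3 gamma, delta and epsilon chains. The kinase Lck starts that signal, CD2 strengthens the contact with the other cell, and UBASH3A damps the signal. Killer T cells and natural killer (NK) cells hold granules with perforin, which opens membranes, and granzymes, proteases that enter the target cell and trigger its death. NKG7 is a protein of the granule membrane. Sorting of HSCs usually discards cells that carry mature lineage markers, among them CD3.

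Markers of HSCs were measured on all arrays and were lower with pIC. Procr, the endothelial protein C receptor, was at 8.23 to 8.33 with PBS and at 7.52 and 7.51 with pIC, and Fgd5, a guanine exchange factor gene that marks HSCs, at 8.85 to 8.91 and at 7.31 and 7.14. Of 17 HSC markers measured, 13 fell with pIC over both backgrounds and 0 rose, where 9.89% of all genes were called lower. In pIC against PBS 10 fell (5.75% of all genes), and in ATRA+pIC against ATRA 8 did (3.71%). The summed level of the 17 markers, the log2 of their added intensities, was 14.4 to 14.5 with PBS and with ATRA. It was 13.7 on both pIC arrays and 13.7 to 14.2 with ATRA+pIC. ATRA+pIC replicate 2 stood apart from the other pIC-treated arrays. The median of 20 type I interferon targets lay 1.29 log2 units above the PBS mean on this array. It lay 2.35 and 2.37 above it with pIC alone, 2.53 above it on ATRA+pIC replicate 1 and 2.20 above it on replicate 3. Counts of called genes in the comparisons of pIC are given with and without it. Leaving it out was done with its values known. Without this array 13 HSC markers fell over both backgrounds (26% of all genes were called in either direction). In pIC against PBS 11 then fell (18.3%), and in ATRA+pIC against ATRA 12 did (14.5%).

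The stretches before the starts of 5 of the genes are shown because their values on ATRA+pIC replicate 2 and on the pIC arrays are described one by one. Each holds the 250 bases before the gene's start, read 5′ to 3′ on the gene's own strand (RefSeq, build GRCm38.p6), and 8 of the 9 genes had an entry. Capitals mark every match, on either strand, to 1 of 6 motifs: the interferon-stimulated response element (GAAANN followed by GAAA), the STAT site TTCNNNGAA, the RUNX core TGTGGT, the ETS core AGGAAG, the T-box core TCACAC and the AP-1 site TGANTCA.
Nkg7, chr7:43436888-43437137, plus strand: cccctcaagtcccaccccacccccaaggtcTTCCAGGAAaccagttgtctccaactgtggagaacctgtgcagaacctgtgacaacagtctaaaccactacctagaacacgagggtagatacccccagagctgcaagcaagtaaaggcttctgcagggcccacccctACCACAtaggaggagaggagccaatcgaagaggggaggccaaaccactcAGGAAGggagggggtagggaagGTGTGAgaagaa
Gzmb, chr14:56262335-56262584, minus strand: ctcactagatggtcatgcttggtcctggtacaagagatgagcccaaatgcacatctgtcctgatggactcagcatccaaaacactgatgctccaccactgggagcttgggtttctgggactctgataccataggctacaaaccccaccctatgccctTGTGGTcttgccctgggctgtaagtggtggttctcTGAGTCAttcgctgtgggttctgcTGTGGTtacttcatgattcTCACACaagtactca
Gzma, chr13:113100982-113101231, minus strand: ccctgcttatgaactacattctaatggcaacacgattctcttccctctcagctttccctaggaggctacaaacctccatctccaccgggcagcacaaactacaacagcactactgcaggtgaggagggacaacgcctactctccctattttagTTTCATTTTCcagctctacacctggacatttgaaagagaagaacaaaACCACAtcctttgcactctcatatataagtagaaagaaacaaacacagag
Cd3d, chr9:44981536-44981785, plus strand: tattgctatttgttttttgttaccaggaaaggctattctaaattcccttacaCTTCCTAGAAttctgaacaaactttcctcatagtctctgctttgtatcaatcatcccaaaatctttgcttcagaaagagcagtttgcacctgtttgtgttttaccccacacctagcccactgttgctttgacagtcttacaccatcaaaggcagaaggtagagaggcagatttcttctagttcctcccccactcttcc
Ubash3a, chr17:31207816-31208065, plus strand: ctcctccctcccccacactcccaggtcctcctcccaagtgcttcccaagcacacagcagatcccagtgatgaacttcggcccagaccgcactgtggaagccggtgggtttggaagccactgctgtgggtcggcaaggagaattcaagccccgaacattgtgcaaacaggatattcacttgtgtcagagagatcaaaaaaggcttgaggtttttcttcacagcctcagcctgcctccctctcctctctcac

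Each of the 6 motifs occurred in at least 1 of the 8 windows. Each was in a larger share of these windows than of all 32851 such windows. Among 8 windows, 1 match is enough for this with the interferon-stimulated element, the STAT site, the AP-1 site and the T-box core. For these motifs the larger share therefore shows no enrichment. The STAT letters occurred in Nkg7, 220 to 212 bases before the start, and in Cd3d, 197 to 189 bases before it. In Cd3d they overlap an ETS core at 198 to 193, and 7.02% of all windows hold the STAT letters. The interferon-stimulated element occurred in Gzma, 97 to 88 bases before the start (2.98% of windows). Gzmb held the RUNX core at 93 to 88 and at 34 to 29 bases (14% of windows), the AP-1 site at 58 to 52 (6.75%) and the T-box core at 15 to 10 (12.3%). Nkg7 also held a RUNX, an ETS and a T-box core, and Gzma a RUNX core. The Ubash3a and Cd3g windows held no match to the 6 motifs. The ETS core was in 29.5% of all windows and in 4 of the 8 here, those of Cd3d, Cd3e, Nkg7 and Prf1. The RUNX core was also in 4 of the 8 (14% of all windows), with Prf1 holding it at 130 to 125 bases. The STAT letters and the T-box core were each in 2 of the 8, and the other 2 motifs in 1 each. No test of these counts was made. Cd3g and Cd3d lie on opposite strands with starts 1355 bases apart on chromosome 9, and the start of Cd3e is 27825 bases from that of Cd3d. These matches describe the letters only.

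The CD3 chains were low on all PBS arrays and high on 4 of the 5 pIC-treated arrays. The ATRA arrays were not all below these, since ATRA replicate 2 lay above pIC replicate 1 for Cd3g (7.79 and 7.48). Cd3e, the chain that pairs with both CD3 gamma and CD3 delta, had log2 intensities of 6.42, 6.33 and 6.82 with PBS, 6.92, 6.92 and 6.75 with ATRA, 7.50 and 8.17 with pIC, and 8.67, 6.25 and 8.33 with ATRA+pIC replicates 1, 2 and 3. Cd3d, the delta chain, had 6.01, 6.07 and 6.30 with PBS, 6.77, 7.06 and 6.59 with ATRA, 7.18 and 8.11 with pIC, and 8.52, 6.18 and 8.49 with ATRA+pIC. Both pIC arrays lay above every PBS array for each chain, while ATRA+pIC replicate 2 lay among the PBS arrays for Cd3d and below all 3 for Cd3e. Cd3g, the gamma chain, had the lowest and the highest values further apart than the other CD3 genes, with 5.0, 5.30 and 6.27 for PBS, 6.90, 7.79 and 6.23 for ATRA, 7.48 and 8.54 for pIC, and 9.23, 5.46 and 9.63 for ATRA+pIC. Over the 11 arrays, Pearson's r was 0.979 between Cd3e and Cd3d, 0.977 between Cd3d and Cd3g and 0.945 between Cd3e and Cd3g, as a description, since the arrays share their treatments.

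Cd2 and Ubash3a differed in how they split the pIC arrays. Cd2 was at 5.79, 5.73 and 5.83 with PBS and at 5.80, 5.83 and 5.59 with ATRA. With pIC it was at 6.17 and 7.64, and with ATRA+pIC at 7.63, 5.88 and 7.22. So pIC replicate 1 lay 0.39 above the PBS mean and pIC replicate 2 lay 1.86 above it. Ubash3a had 6.0, 5.69 and 6.44 with PBS, 5.64, 5.80 and 5.66 with ATRA, 7.32 and 7.81 with pIC, and 8.0, 6.25 and 7.52 with ATRA+pIC. Its pIC arrays differed by 0.49, less than those of Cd2 (1.47), Cd3g (1.05), Cd3d (0.92) and Cd3e (0.67).

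Gzmb and Nkg7, both granule genes, differed on ATRA+pIC replicate 2. Gzmb, the granzyme that cleaves caspases in target cells, was at 5.03, 4.49 and 4.53 with PBS, at 4.95, 5.44 and 4.96 with ATRA, at 8.35 and 8.92 with pIC, and at 9.77, 4.78 and 8.56 with ATRA+pIC. On ATRA+pIC replicate 2 it was 0.09 above the PBS mean, within the PBS arrays. Nkg7 was at 8.79, 9.24 and 9.46 with PBS, at 8.87, 8.87 and 8.58 with ATRA, at 10.18 and 10.32 with pIC, and at 10.27, 9.78 and 10.25 with ATRA+pIC. It was above every array without pIC on all 5 pIC-treated arrays, ATRA+pIC replicate 2 included, where it lay 0.61 above the PBS mean.

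Gzma and Prf1 had the smallest differences between the pIC and PBS means among the 9 genes. Gzma, the tryptase-like granzyme, was at 4.19, 4.55 and 4.13 with PBS, at 4.18, 4.36 and 4.07 with ATRA, at 5.30 and 5.07 with pIC, and at 7.51, 4.33 and 5.66 with ATRA+pIC. Every array but ATRA+pIC replicate 1 was at 5.66 or below. Prf1, the perforin gene, was at 6.37, 6.46 and 6.46 with PBS, at 6.61, 6.35 and 6.32 with ATRA, at 6.72 and 6.87 with pIC, and at 7.07, 6.23 and 7.11 with ATRA+pIC. The lowest of the 11 arrays for Prf1 was ATRA+pIC replicate 2. The deposited table gives no detection call, so a low level cannot be told from background here.

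**Figure D1:**
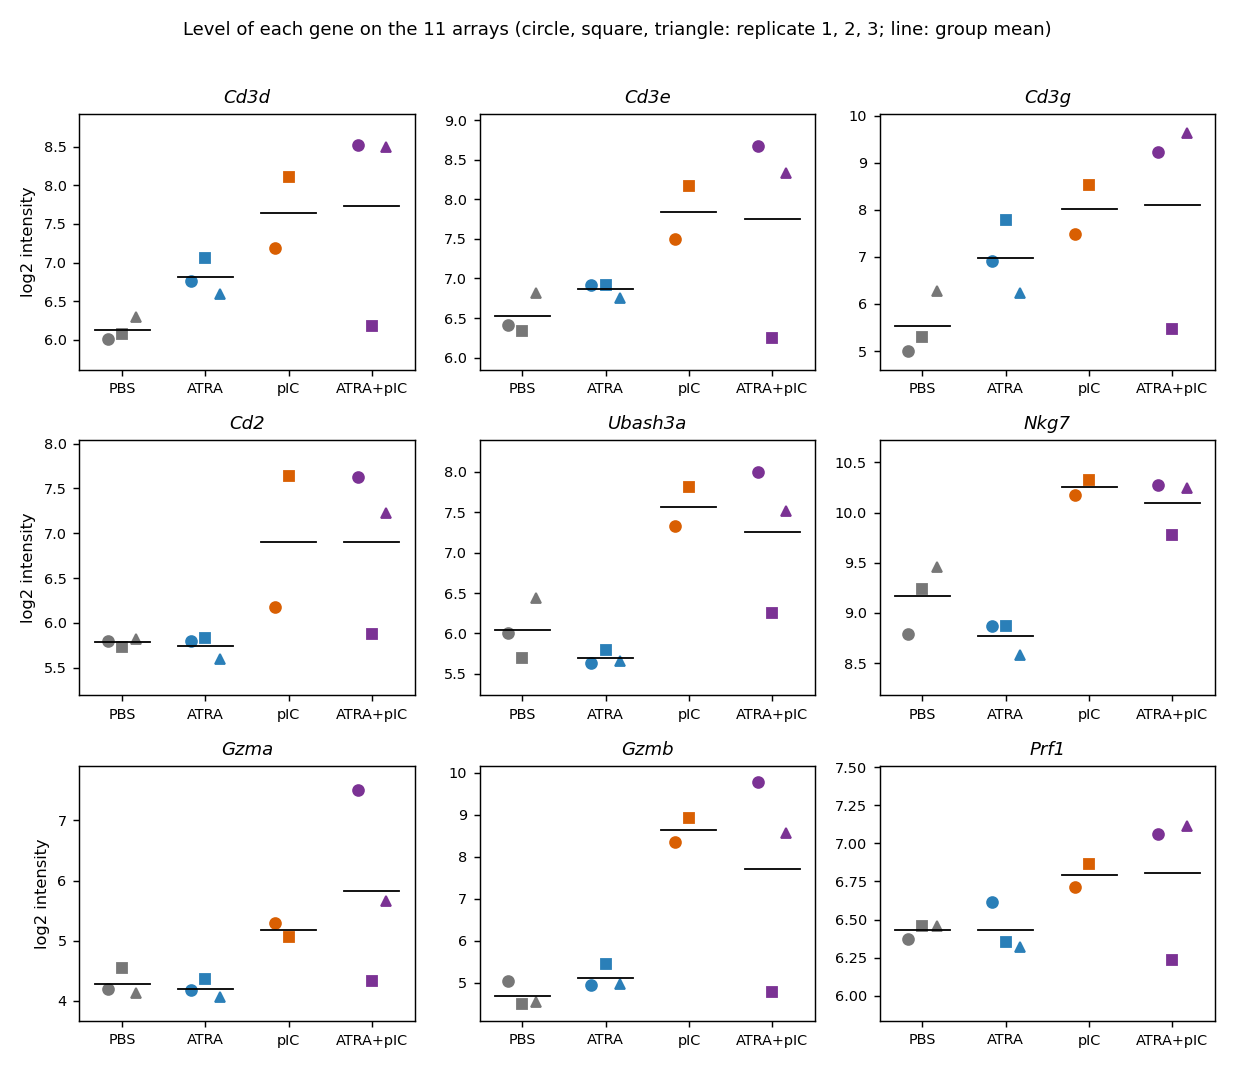
Log2 intensity (vertical axes, 1 scale per panel, not starting at 0) of 9 T-cell and granule genes on each of the 11 arrays, by group; points are arrays, symbols give the replicate number and lines the group means. ATRA+pIC replicate 2 (purple square) lies at or near the level of the arrays without pIC for all genes but Nkg7 (9.78, with those arrays up to 9.46). It is above all of those arrays for Nkg7 and, narrowly, for Cd2 (5.88, with those arrays up to 5.83).

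The comparison of pIC with PBS asked what the interferon-inducing agent changed without ATRA. Nkg7, Ubash3a and Gzmb rose, and the other 6 genes had higher means without passing the test. Nkg7 rose by 1.09 ± 0.20 log2 units (standard error, SE; 2.12-fold, adjusted p 0.00697), Ubash3a by 1.52 ± 0.40 (2.87-fold, adjusted p 0.0299) and Gzmb by 3.95 ± 1.05 (15.5-fold, adjusted p 0.0298; 95% interval 1.64 to 6.27). The CD3 chains had differences of 2.48 ± 1.02 (Cd3g), 1.52 ± 0.57 (Cd3d) and 1.31 ± 0.55 (Cd3e), and Cd2 of 1.13 ± 0.47, at adjusted p 0.109 to 0.146. Gzma (0.90 ± 0.64) and Prf1 (0.36 ± 0.22) had adjusted p 0.429 and 0.334. The test was limma's, fitted on all 22180 genes and 11 arrays, with Benjamini-Hochberg adjustment.

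So 3 of 9 genes were called higher and 0 lower, where 8.94% of all genes were called higher and 5.75% lower. For all 9 genes both pIC arrays lay above the 3 PBS arrays, which held for 23.4% of all genes. The median difference of the 9 genes was 1.31, and that of all genes 0.0013. Since the 4 groups share 1 estimate of spread, ATRA+pIC replicate 2 widened the errors here too: without it 8 of 9 genes were called higher (18.3% of all genes were called in either direction), all but Gzma (adjusted p 0.172), with the differences themselves unmoved. The count was 1 without PBS replicate 1, PBS replicate 2 or pIC replicate 1 (9.39%, 8.83% and 4.34% of all genes called), 2 without PBS replicate 3 (11.5%) and 0 without pIC replicate 2 (2.99%). Nkg7 missed the threshold without pIC replicate 2 (adjusted p 0.0694), Ubash3a without either pIC array or either of PBS replicates 1 and 2 (0.0747 to 0.20), and Gzmb without any single PBS or pIC array (0.062 to 0.169).

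After ATRA, the response to pIC was read from ATRA+pIC against ATRA. Nkg7 rose by 1.33 ± 0.18 (2.51-fold, adjusted p 0.00305) and Ubash3a by 1.56 ± 0.36 (2.94-fold, adjusted p 0.0292). Gzmb had a difference of 2.58 ± 0.94, Gzma of 1.63 ± 0.58 and Cd2 of 1.17 ± 0.42, at adjusted p 0.122 to 0.132. The CD3 chains had 1.13 ± 0.91 (Cd3g), 0.92 ± 0.51 (Cd3d) and 0.89 ± 0.49 (Cd3e), at adjusted p 0.345 to 0.549, and Prf1 had 0.38 ± 0.20 (adjusted p 0.31). Thus 2 of 9 were called higher and 0 lower, against 3.5% and 3.71% of all genes, and the arrays of Cd2, Ubash3a and Nkg7 did not overlap (11.7% of all genes were higher in this way).

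ATRA+pIC replicate 2 set this count. Without it all 9 genes were called higher (14.5% of all genes were called in either direction), with differences of 4.05 ± 0.33 for Gzmb, 2.46 ± 0.48 for Cd3g, 2.38 ± 0.40 for Gzma, 2.06 ± 0.22 for Ubash3a, 1.70 ± 0.23 for Cd3d, 1.68 ± 0.32 for Cd2, 1.64 ± 0.20 for Cd3e, 1.49 ± 0.17 for Nkg7 and 0.66 ± 0.10 for Prf1 (adjusted p 5.46e-05 to 0.00768). Nkg7 kept its call with any single array left out, with adjusted p up to 0.019. Ubash3a missed it without ATRA replicate 1, 2 or 3 or ATRA+pIC replicate 1 or 3 (0.0772 to 0.106), where the count was 1 and 2.15% to 3.4% of all genes were called.

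Averaged over both backgrounds, pIC was compared on 5 treated and 6 untreated arrays. Gzmb rose by 3.27 ± 0.70 (9.63-fold, adjusted p 0.00696), Ubash3a by 1.54 ± 0.27 (adjusted p 0.00246), Cd3d by 1.22 ± 0.39 (adjusted p 0.0441), Nkg7 by 1.21 ± 0.13 (adjusted p 0.000268) and Cd2 by 1.15 ± 0.32 (adjusted p 0.0238). Cd3g (1.81 ± 0.68), Gzma (1.26 ± 0.43), Cd3e (1.10 ± 0.37) and Prf1 (0.37 ± 0.15) did not pass, at adjusted p 0.0552 to 0.103. The 5 calls of 9 compare with 12.2% of all genes called higher, and 0 of 9 called lower with 9.89%. For Cd2 and Nkg7 all 5 treated arrays lay above all 6 untreated ones, which held for 5.51% of genes.

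With ATRA+pIC replicate 2 left out, all 9 were called (26% of all genes in either direction), and the difference of Gzmb was 4.0 ± 0.23, of Ubash3a 1.79 ± 0.16, of Cd3d 1.61 ± 0.16, of Cd2 1.40 ± 0.23 and of Nkg7 1.29 ± 0.12. The count was 3 without PBS replicate 2, ATRA replicate 3, pIC replicate 2 or ATRA+pIC replicate 3 (19.7%, 19.5%, 15.5% and 18.3% of all genes called). Cd3d missed the threshold without any single array other than ATRA+pIC replicate 2 (adjusted p 0.0534 to 0.182), with the replicate number as a block (0.0589) and with a trend and robust prior (0.06). Cd2 missed it without PBS replicate 2, ATRA replicate 3, pIC replicate 2 or ATRA+pIC replicate 3 (0.0503 to 0.123), and Gzma passed without ATRA+pIC replicate 1 (0.84 ± 0.22, adjusted p 0.0225).

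**Figure D2:**
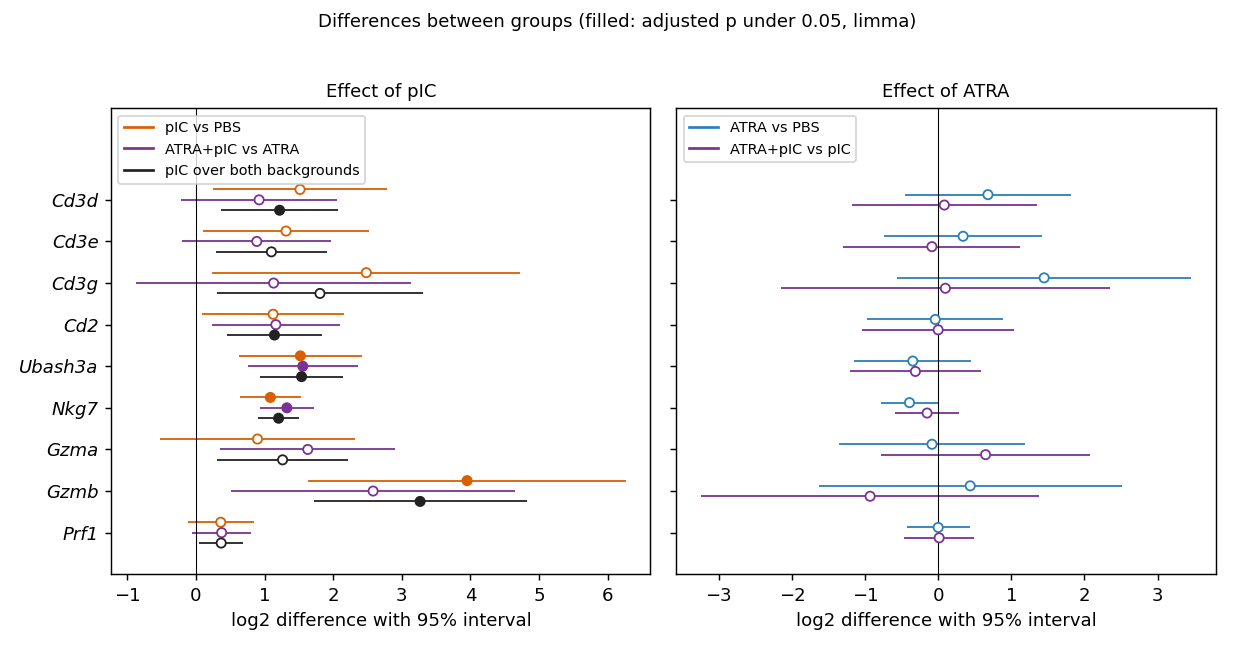
Log2 differences between groups (horizontal axes) for the 9 genes (vertical axis), with 95% intervals from limma; filled points had an adjusted p under 0.05. The left panel holds the 3 comparisons of pIC, where all values are positive, and the right panel the 2 of ATRA, where every interval includes 0.

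ATRA alone changed none of the 9 genes by this test. In ATRA against PBS, 0 of 9 were called, where 1 of 22180 genes (0.00451%) was, and 0 of 9 had an unadjusted p under 0.05 (6.8% of all genes). Cd3d was higher on all 3 ATRA arrays than on all 3 PBS arrays (6.61% of all genes were), with a difference of 0.68 ± 0.51 (95% interval -0.46 to 1.82). Cd3g had 1.45 ± 0.91 (-0.56 to 3.46), Cd3e 0.34 ± 0.49 (-0.74 to 1.42) and Nkg7 -0.39 ± 0.18 (-0.79 to 0.00178). Limma's adjusted p was 0.739 or more for each of the 9 genes.

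ATRA before pIC left the 9 genes without a detectable difference from pIC alone. In ATRA+pIC against pIC 0 of 9 genes were called, as were 0 of 22180 genes (0%) by limma, 2242 of which had an unadjusted p under 0.05 (10.1%). The widest intervals were those of Gzmb (-0.93 ± 1.05, 95% interval -3.25 to 1.38) and Cd3g (0.10 ± 1.02, -2.15 to 2.34), and the narrowest was that of Nkg7 (-0.15 ± 0.20, -0.59 to 0.29). The difference between both pIC effects was tested as an interaction, and 0 of 9 genes passed (0% of all genes, 1390 with an unadjusted p under 0.05). It was -1.37 ± 1.41 for Gzmb (-4.48 to 1.74), -1.35 for Cd3g (-4.36 to 1.66) and 0.24 ± 0.27 for Nkg7 (-0.35 to 0.83). Leaving out ATRA+pIC replicate 2 turned the sign of Gzmb in both comparisons. Without that array Gzmb was 0.53 ± 0.36 in ATRA+pIC against pIC and 0.094 ± 0.46 in the interaction, and Cd3g 1.42 ± 0.53 and -0.028 ± 0.68, and 0 of 9 genes were called in either (0% of all genes). These comparisons share the pIC and ATRA+pIC arrays with those above.

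By group mean, the CD3 chains stood in the order PBS, ATRA, then both pIC groups. Cd3e had means ± SD of 6.52 ± 0.26 (PBS, n = 3), 6.86 ± 0.09 (ATRA, n = 3), 7.75 ± 1.31 (ATRA+pIC, n = 3) and 7.84 ± 0.47 (pIC, n = 2), and Cd3g of 5.52 ± 0.66, 6.97 ± 0.78, 8.11 ± 2.30 and 8.01 ± 0.74 in the same groups. The pIC and ATRA+pIC groups did not differ beyond their spread. Gzmb stood at 4.68 ± 0.30 with PBS, 5.12 ± 0.28 with ATRA, 7.70 ± 2.61 with ATRA+pIC and 8.63 ± 0.40 with pIC. Nkg7 had the order ATRA (8.77 ± 0.17), PBS (9.17 ± 0.34), ATRA+pIC (10.10 ± 0.28) and pIC (10.25 ± 0.10). The PBS and ATRA groups differed by less than their tests could show for each of these genes. In these bulk samples, more cells of a type and more RNA per cell cannot be told apart.

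Genes most like 3 of the members were ranked over the 11 arrays among 2396 genes that spanned at least 1 log2 unit. For Cd3e they were Cd3d (r 0.98), the lymphoid transcription factor Ikzf3 (0.98), Il2rb, the beta chain of the interleukin-2 and interleukin-15 receptors (0.98), the T-cell transcription factor Bcl11b (0.97) and the integrin chain Itgb7 (0.96). For Nkg7 they were Arap3 (0.97), Gm12185 (0.97), the guanylate-binding protein gene Gbp10 (0.96), the transcription factor gene Runx3 (0.96) and the interferon-inducible GTPase gene Iigp1 (0.96). For Gzmb they were the complement factor B gene Cfb (0.99), the cytokine receptor chain Csf2rb2 (0.98), the progranulin gene Grn (0.98), Gbp9 (0.98) and Lilrb4a (0.98). The correlations carry no test, since all the arrays of a group share a treatment.

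Since these genes were ranked on the same 11 arrays, their values on single arrays are a description of the ranking and no support for it. Against the PBS arrays the lists were mixed on ATRA+pIC replicate 2. In the Nkg7 list, Iigp1 was at 11.18 and Gbp10 at 10.09, above PBS (up to 10.12 and 8.82). Arap3 was at 8.30, level with the highest PBS array and above the ATRA arrays (up to 7.85). In the Cd3e list, Bcl11b (6.14) and Ikzf3 (5.4) were below all PBS and all ATRA arrays. Il2rb (6.55) was above the PBS arrays (up to 6.39) but below the ATRA arrays (6.73 to 6.90). In the Gzmb list, Cfb (5.89) was below all PBS arrays but within the ATRA arrays (5.69 to 6.26). Grn (10.28) was above every array without pIC (up to 10.21). Between pIC replicates 1 and 2, Il2rb was at 7.69 and 9.17 and Bcl11b at 6.83 and 7.50, but Itgb7 was at 8.13 and 8.18. Cfb was at 9.36 and 9.38 on these arrays, and Lilrb4a at 6.73 and 7.19.

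The 20 interferon targets taken singly differed by -0.26 (Ifit3) to 0.26 (Mx1) between pIC replicates 2 and 1. Between the same arrays Nkg7 differed by 0.15, Prf1 by 0.15 and Gzma by -0.23 (lower on replicate 2), and Gzmb by 0.57. The T-cell receptor genes, Cd2 and Ubash3a differed by 0.49 to 1.47. On ATRA+pIC replicate 2, the same targets lay 0.17 (Ifit3) to 2.77 (Oas2) above their PBS means. There, 8 of the 9 genes lay between -0.27 (Cd3e) and 0.21 (Ubash3a) of theirs, and Nkg7 at 0.61. Of these, only Ubash3a and Nkg7 lay above the lowest target, Ifit3, and the median of the targets was 1.29. Over both backgrounds Ifit3 rose by 0.32 ± 0.10, against a median of 2.22 for the targets. No test between the 9 genes and the targets was made.

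**Figure D3:**
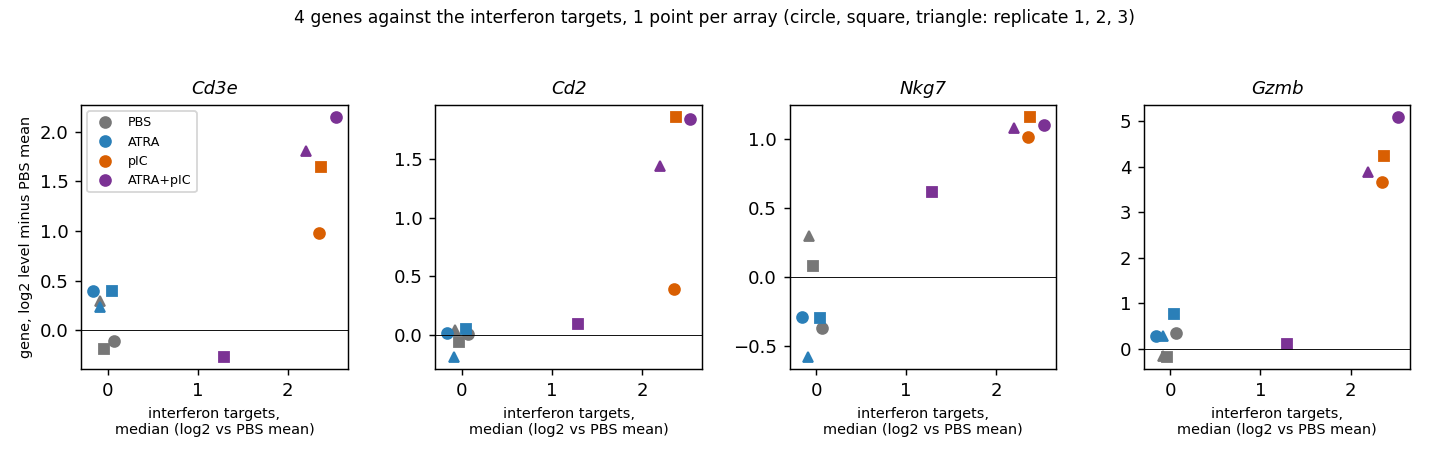
Level of Cd3e, Cd2, Nkg7 and Gzmb on each array relative to the PBS mean (vertical axes, log2) against the median of 20 type I interferon targets on that array (horizontal axes, log2 relative to the PBS mean); each point is 1 array, colours give the group and symbols the replicate. At an interferon median of 1.29 (ATRA+pIC replicate 2) Nkg7 is at 0.61 and Gzmb at 0.09, and the pIC arrays, at 2.35 and 2.37, lie far apart for Cd2 (0.39 and 1.86).

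Other genes of the receptor and its signalling were taken from a list of 22, of which 16 were measured. Averaged over both backgrounds, 2 rose and 1 fell, against 22.1% of all genes called, with a median of 0.18 (all genes -0.003). Lat, the adaptor that links the receptor to its effectors, rose by 0.52 ± 0.09 (adjusted p 0.00246) and Zap70, the kinase that binds the phosphorylated CD3 chains, by 0.61 ± 0.16 (adjusted p 0.0189). Ptpn22, a phosphatase that restrains the receptor, fell by 0.23 on the log2 scale (SE 0.07, adjusted p 0.0342), and Plcg1, the phospholipase, had -0.24 ± 0.08 (adjusted p 0.0629). In pIC against PBS 0 rose and 1 fell (Ptpn22; 14.7% of all genes called), and in ATRA+pIC against ATRA 1 rose (Lat) and 0 fell (7.21%). Without ATRA+pIC replicate 2, 7 of the 16 rose and 2 fell over both backgrounds (26% of all genes called): Zap70, Lat, Txk, Skap1, Grap2, Rasgrp1 and Trat1 rose. The counts were then 2 higher and 2 lower in pIC against PBS (18.3%), and 6 higher and 0 lower in ATRA+pIC against ATRA (14.5%).

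T-cell surface and lineage genes gave a list of 20 with 19 measured. Over both backgrounds 2 rose and 3 fell (median 0.17, 22.1% of all genes called). In pIC against PBS 0 rose and 2 fell (14.7%), and in ATRA+pIC against ATRA 0 rose and 1 fell (7.21%). The membrane protein Ms4a4b rose by 1.82 ± 0.39 (adjusted p 0.00642) and Cd5, which tunes receptor signals, by 0.82 ± 0.22 (adjusted p 0.0189). The cytokine gene Ltb (-0.63 ± 0.08, adjusted p 0.000545), the adhesion receptor Cd96 (-0.54 ± 0.11, adjusted p 0.00601) and the transcription factor Gata3 (-0.27 ± 0.08, adjusted p 0.0391) fell. Without ATRA+pIC replicate 2, 10 rose and 3 fell (26% of all genes called), in pIC against PBS 3 rose and 2 fell (18.3%), and in ATRA+pIC against ATRA 12 rose and 1 fell (14.5%). Those 12 were Cd4, Cd5, Cd6, Cd28, Icos, Ctla4, Il7r, Ccr7, Bcl11b, Lef1, Ets1 and Ms4a4b.

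Neither coreceptor passed the test on all 11 arrays. Cd4, carried by helper T cells, was at 6.05 to 6.20 with PBS and 6.12 to 6.17 with ATRA. It was at 6.22 and 6.88 with pIC and at 7.08, 5.91 and 7.08 with ATRA+pIC. Thus pIC replicate 1 lay next to the highest PBS array and ATRA+pIC replicate 2 below all of them, and the other 3 pIC-treated arrays above all others. Cd8a, carried by killer T cells, was between 4.85 and 5.22 on all 11 arrays, and Cd8b1 between 5.67 and 6.18. Both genes were highest on pIC replicate 2 (5.22 and 6.14) and ATRA+pIC replicate 1 (5.14 and 6.18). Elsewhere they reached at most 4.98 and 5.95. Neither Cd4 (0.47 ± 0.21, adjusted p 0.138) nor Cd8a (0.13 ± 0.07, adjusted p 0.244) passed over both backgrounds. Without ATRA+pIC replicate 2 the difference of Cd4 was 0.67 ± 0.11 (adjusted p 0.00139) and that of Cd8a 0.15 ± 0.07 (adjusted p 0.196). The difference between Cd4 and Cd8a was not tested.

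NK-cell receptors and regulators were 20, with 16 measured, and over both backgrounds 2 rose and 1 fell (median 0.28, with 22.1% of all genes called). Il2rb, which NK cells and activated T cells use for interleukin-15, rose by 2.0 ± 0.52 (adjusted p 0.0173), and the transcription factor Eomes by 0.36 ± 0.11 (adjusted p 0.0314). Klrb1c, the NK1.1 antigen, fell by 0.61 on the log2 scale (SE 0.18, adjusted p 0.0349), and Klrc1 had 0.31 ± 0.11 (adjusted p 0.061). The activating receptor Ncr1 was at 5.27 to 5.42 with PBS, at 5.61 and 5.45 with pIC and at 6.21, 5.44 and 5.71 with ATRA+pIC, and Klrd1, which pairs with the NKG2 receptors, between 4.15 and 4.89 on all 11 arrays. In either single comparison of pIC, 0 of 16 were called by limma (14.7% and 7.21% of all genes). Without ATRA+pIC replicate 2, 6 rose and 1 fell over both backgrounds (26%). These 6 were Ncr1 (0.39 ± 0.10, limma adjusted p 0.0121), Klrd1 (0.35 ± 0.10, adjusted p 0.0272), Klrk1, Il2rb, Eomes and Cd226. In pIC against PBS 2 then rose, Il2rb and Cd226, and 0 fell (18.3%), and in ATRA+pIC against ATRA 4 rose and 1 fell (14.5%).

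Other granule and effector genes numbered 23, with 22 measured. Over both backgrounds 5 rose and 0 fell (median 0.04), where 12.2% of all genes were called higher and 9.89% lower. These were Tnfsf10, the death ligand TRAIL (1.10 ± 0.13, adjusted p 0.000425), the chemokine Ccl5 (3.98 ± 0.68, adjusted p 0.0022), the cystatin Cst7 (0.78 ± 0.13, adjusted p 0.00222), the vesicle fusion gene Stx11 (0.68 ± 0.17, adjusted p 0.0167) and Ifng, which encodes interferon gamma (0.20 ± 0.06, adjusted p 0.0378). Ccl5 was low on ATRA+pIC replicate 2, as Gzmb was, with 7.51 to 8.36 for PBS, 12.94 and 12.79 for pIC, and 12.86, 8.27 and 12.40 for ATRA+pIC. The granzymes Gzmk (5.87 to 6.34 over the 11 arrays) and Gzmm (7.07 to 7.64) and the cathepsin Ctsw (7.87 to 8.34) had differences of 0.08 ± 0.08, -0.05 ± 0.11 and -0.05 ± 0.09, at adjusted p 0.562 to 0.811. In pIC against PBS 4 of the 22 rose (8.94% of all genes called higher), and in ATRA+pIC against ATRA 1 did (3.5%). Without ATRA+pIC replicate 2 these counts were 4 (18.3% of all genes called in either direction) and 5 (14.5%), and 6 over both backgrounds (26%).

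Markers of other lineages were counted in the same way, against 22.1% of all genes called over both backgrounds (12.2% higher and 9.89% lower). Of 12 B-cell markers 0 were called in each comparison of pIC by limma. Their summed level (log2 of the added intensities, so that bright genes weigh most) was 9.62 to 9.83 for PBS and 9.66 to 9.93 for ATRA+pIC. Of 15 macrophage, monocyte and dendritic-cell markers 5 rose and 2 fell over both backgrounds (median 0.10). Mpeg1, a perforin-like gene of macrophages, rose by 3.5 ± 0.45 (adjusted p 0.000557), and the lysozyme gene Lyz2 (-0.61 ± 0.15, adjusted p 0.013) and the cytokine receptor Flt3 (-0.74 ± 0.21, adjusted p 0.0283) fell. The summed levels were 10.9 to 11 with PBS, 12.1 to 12.2 with pIC and 11.5 to 12.4 with ATRA+pIC. Of 10 erythroid markers 5 rose and 0 fell (median 0.57), and of 13 neutrophil markers 1 rose and 0 fell (median -0.085). The summed level of the neutrophil markers was 9.91 to 10.01 with PBS, 10.16 to 11.66 with ATRA, 9.92 to 9.99 with pIC and 10.10 to 10.23 with ATRA+pIC. Among them Elane was at 10.08 on ATRA replicate 1 and at 5.78 to 6.69 on all other arrays. On ATRA replicate 1 the list's median lay 0.29 above the PBS mean, S100a9 was highest (6.66) and Cxcr2 lowest (6.95). Without ATRA+pIC replicate 2 (26% of all genes called), 7 erythroid markers rose and 1 fell, 1 neutrophil marker rose and 1 fell, 5 macrophage markers rose and 2 fell, and 0 B-cell markers were called. For the T-cell surface list the summed level was 11.9 to 12 with PBS, 12.11 to 12.15 with ATRA, 11.6 to 11.9 with pIC and 11.8 to 12.3 with ATRA+pIC. For the NK list it was 9.2 to 9.41, 9.52 to 9.64, 9.67 to 10.3 and 9.4 to 10.7 in these groups. The T-cell surface sum holds the bright gene Ltb, at 10.7 to 10.9 with PBS and at 9.90 and 10.2 with pIC. That list's median, relative to the PBS mean, was 0.05 and 0.30 with pIC. With ATRA+pIC replicates 1, 2 and 3 it was 0.72, -0.16 and 0.63. The part of other cells in the differences of the 9 genes was not tested.

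**Figure D4:**
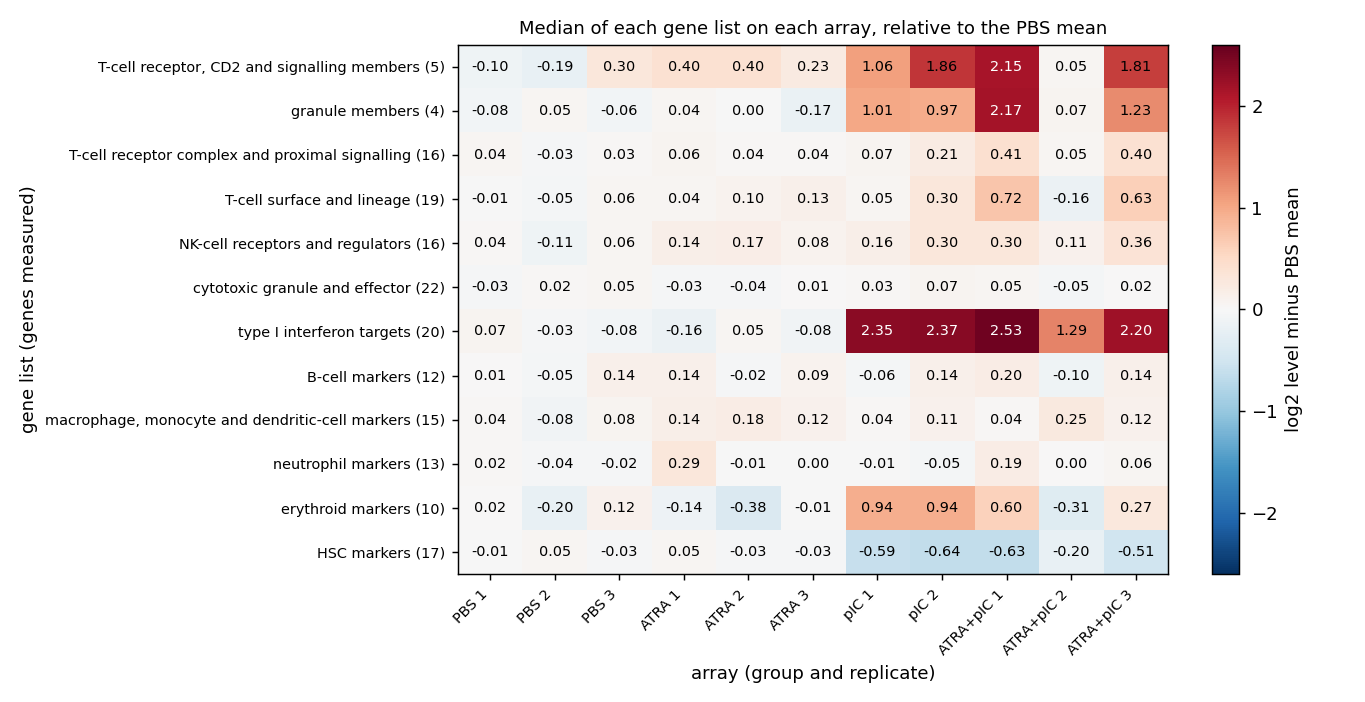
Median log2 level of each gene list relative to the PBS mean (colour and printed value) on each array (columns), with the number of measured genes in brackets. On the 4 pIC-treated arrays other than ATRA+pIC replicate 2 the T-cell receptor members lie between 1.06 and 2.15 and the interferon targets between 2.20 and 2.53, and on that array at 0.05 and 1.29.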

How the data were processed

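RNA of sorted HSCs was biotin-labelled and hybridised to Affymetrix arrays, per the labels' protocols. The deposited values are log2 intensities, 1 column per sample, and oligo 1.36.1, RMA and limma 3.28.20 are named without role or order, per the submitters' processing notes. Array medians of the deposited values ran from 6.19 to 6.28, and the number of arrays limits the precision.

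Of 41345 probe sets, 23521 had 1 gene symbol, 1814 several and 16010 none listed. A gene was taken at its brightest single-symbol probe set, which gave 22180 genes. Limma 3.58.1 (R 4.3.3) fitted 4 group means with plain empirical Bayes (7 residual degrees of freedom), and genes were called at a two-sided Benjamini-Hochberg adjusted p under 0.05 over all genes. The fit was tested on simulated data. Besides the 9 genes, those named were up to 4 per list with the smallest adjusted p over both backgrounds, a fixed marker set, and 5 per member by likeness. Other genes named were chosen after their values were seen. Members and lists were chosen with earlier results of these data known. Python 3.11.15, pandas 2.3.3, numpy 2.4.6 and matplotlib 3.10.9 made tables and figures.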

Additional observations from a re-analysis of the deposited data

How the results depend on the processing

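The alternatives were a filter on dim genes, the replicate number as a block, scaling by cyclic loess, averaging the probe sets per gene or testing them singly, array weights, a trend and robust prior, fitting only the groups compared, and leaving out each array. Of 1002 values of single genes under them, 882 kept their direction and their side of the threshold, 32 lost a call, 36 gained one and 52 changed sign. Part of the 882 was fixed beforehand, so this count is no measure of robustness. Each of the 9 genes had 1 probe set, so both settings on probe sets left its differences unmoved. Leaving out an array of a group outside a comparison could change only the errors and adjusted p there. No sign changed in the 3 comparisons of pIC. The dim filter kept 8 of the 9 genes.

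With array weights, which gave ATRA+pIC replicate 2 the lowest weight (0.37), 5 genes were called in pIC against PBS, 9 in ATRA+pIC against ATRA and 9 over both backgrounds (19%, 20.7% and 29.6% of all genes). Fitted on only the groups compared, 8 were called in pIC against PBS and 1 in ATRA+pIC against ATRA (13.7% and 1.38%). With single arrays left out the counts ran from 0 to 8, from 1 to 9 and from 3 to 9 in these comparisons.

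Sign changes concerned values that were not called. In ATRA+pIC against pIC the replicate block gave Cd3d -0.035, Cd3g -0.16 and Prf1 -0.024, and array weights Cd3e 0.39 and Cd2 0.27. For the interaction the replicate block gave Ubash3a -0.069 and Prf1 -0.024, and array weights Cd3d 0.064, Cd3e 0.14 and Cd3g 0.069. In ATRA against PBS, Prf1 was -0.0056 under cyclic loess and -0.0036 with array weights. With single arrays left out, ATRA against PBS ran from -0.085 to 0.034 for Cd2, -0.17 to 0.046 for Gzma and -0.093 to 0.056 for Prf1. ATRA+pIC against pIC ran from -0.73 to 0.73 for Cd2, -0.38 to 0.86 for Cd3d, -0.55 to 0.66 for Cd3e, -0.66 to 1.42 for Cd3g, -0.19 to 1.40 for Gzma, -1.97 to 0.53 for Gzmb, -0.24 to 0.0084 for Nkg7, -0.14 to 0.30 for Prf1 and -0.68 to 0.19 for Ubash3a. The interaction ran from -0.69 to 0.77 for Cd2, -1.06 to 0.18 for Cd3d, -0.89 to 0.32 for Cd3e, -0.11 to 1.48 for Gzma, -2.40 to 0.094 for Gzmb, -0.14 to 0.30 for Prf1 and -0.33 to 0.54 for Ubash3a. Leaving out ATRA+pIC replicate 2 itself turned the sign of Cd3e, Cd2, Ubash3a, Nkg7 and Gzmb in ATRA+pIC against pIC and of Cd3d, Cd3e and Gzmb in the interaction. The cause of these changes was not tested.

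Deviations from the group means were hardly correlated between arrays of equal replicate number (-0.109 to 0.098). At 2 or 3 arrays per group, these correlations cannot show whether such arrays shared a mouse or a batch. With the replicate block 3, 2 and 4 genes were called in pIC against PBS, in ATRA+pIC against ATRA and over both backgrounds, where Cd3d lost its call (12.8%, 6.12% and 21% of all genes). Counts in the other gene lists without ATRA+pIC replicate 2 were added after the values were seen.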
